A study of Mus musculus with 74 samples.

Results

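Ribosome-bound RNA of brown adipocytes was compared between ZT17 and ZT5, the middle of the dark and of the light phase if lights go off at ZT12, as is usual. Zeitgeber time (ZT) is the hour after lights on, and the labels do not record the lighting itself. The comparison was fixed by the labels, and used the 2 libraries of brown adipose tissue (BAT) labelled ZT17 and the 3 labelled ZT5. These are 5 of the 17 BAT RNA libraries, of 35 RNA libraries and of 74 samples in the series. The mice of all RNA and ATAC libraries carried Adiponectin-Cre:NuTRAP, an allele pair in which a Cre driven by the adipocyte gene for adiponectin switches on a fluorescent tag on the ribosomes and nuclei of adipocytes. Ribosomes were captured from homogenised tissue with antibodies to GFP, and 250 ng of their RNA went into each directional library. These groups differed in depot (BAT or inguinal white adipose tissue, WAT) and in time. BMAL1 binding, used further on, was measured at ZT4 in C57BL6J mice, in inguinal WAT. The labels do not state diet, feeding schedule, sex or age, nor that libraries of a time came from separate animals, so the p-values reflect library-to-library spread, which may be technical. Tissue was taken at 6 times, ZT1, ZT5, ZT9, ZT13, ZT17 and ZT21, and all 17 BAT libraries entered one fit so that the 2 ZT17 libraries did not have to supply the error alone.

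Brown adipocytes burn fatty acids and glucose to make heat through the uncoupling protein UCP1, and take up and store lipid and glycogen when nutrients arrive. Like most cells they hold a circadian clock, in which BMAL1 (encoded by Arntl) and CLOCK activate Per, Cry and Nr1d genes through E-boxes, and the products of those genes repress BMAL1, CLOCK or their transcription. PAR bZIP factors such as DBP and TEF activate D-boxes downstream, and NFIL3 represses the same sites. Heat shock proteins and their co-chaperones fold client proteins and are known to follow daily cycles of body temperature in several tissues.

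Totals were 12609367, 6242123 and 9243596 counts for the ZT5 libraries and 9691434 and 10378155 for the ZT17 libraries. Adipocyte and brown adipocyte markers had summed levels of 34041 to 48737 and 11887 to 15298 CPM in the 5 libraries (read counts relative to library size, scaled by TMM). Most of the adipocyte sum was Fabp4, at 30520 to 45285 CPM. Elovl3, of the brown adipocyte list, was at 0 to 0.671 CPM. Epithelial markers summed to at most 0.141 CPM and lymphocyte markers to at most 0.702 CPM, with Cd4 and Cd8a at 0. Skeletal muscle markers summed to 165 to 213 CPM at ZT5 and to 52.6 to 80.6 CPM at ZT17, with no marker at 0 throughout, and 9 of 10 had both ZT17 libraries below all of ZT5, as did 13.1% of all genes tested. Endothelial markers also summed lower at ZT17, at 8.89 to 9.59 CPM against 11.3 to 28.7 CPM, as did fibroblast or preadipocyte markers, at 10.4 and 18.5 CPM against 21.6 to 26.3 CPM. Schwann cell markers summed to 706 and 707 CPM at ZT17, above the 488 to 687 CPM at ZT5. ZT5 replicate 3 stood apart: its correlation of log2 levels with the other ZT5 libraries was 0.955 and 0.971, against 0.981 between those and 0.982 between the ZT17 libraries, and mitochondrially encoded genes took 0.669% of its counts against 0.293% and 0.322%.

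Of 12394 genes tested, 28 passed an edgeR adjusted p of 0.05 (0.226%), 13 higher at ZT17 (0.105%) and 15 lower (0.121%). An unadjusted p under 0.05 was reached by 977 genes. The genes that rose included the clock genes Per3 and Nfil3, the lipolysis inhibitor G0s2 and the glycogen regulator Ppp1r3b. Those that fell included the clock repressor Nr1d1 and several genes of chaperones. In each of the 28, no ZT17 library overlapped a ZT5 library. This was also true of many genes that did not pass, since 11.4% of all genes tested had every ZT17 library above every ZT5 library and 13.1% had the reverse. The call set was thin: 17 genes passed without ZT5 replicate 3 (12 of them among the 28), 3 and 2 passed without ZT5 replicates 1 and 2, 1 passed without ZT17 replicate 1 and 0 without ZT17 replicate 2 (501 at an unadjusted p under 0.05). DESeq2 on the same libraries called 124 genes, all 28 included, while every one of the 28 kept its direction in all alternatives that gave a value.

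**Figure D1:**
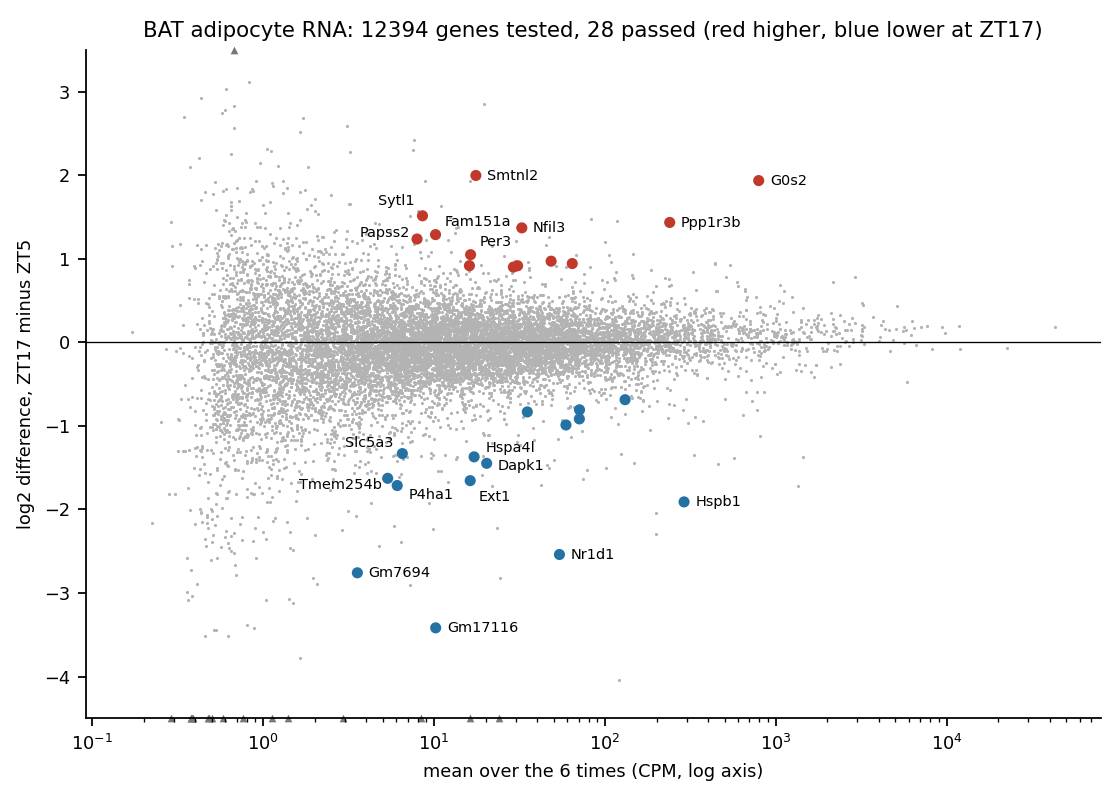
Log2 difference between ZT17 and ZT5 (vertical axis) against the mean level over the 6 times in CPM (horizontal, log axis) for the 12394 genes tested in BAT. Red and blue points are the 13 genes that rose and the 15 that fell, with those of larger change or level named; triangles at the edges are 17 genes beyond the plotted range, none of which passed. Of those 17, 16 lie below the range.

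**Figure D2:**
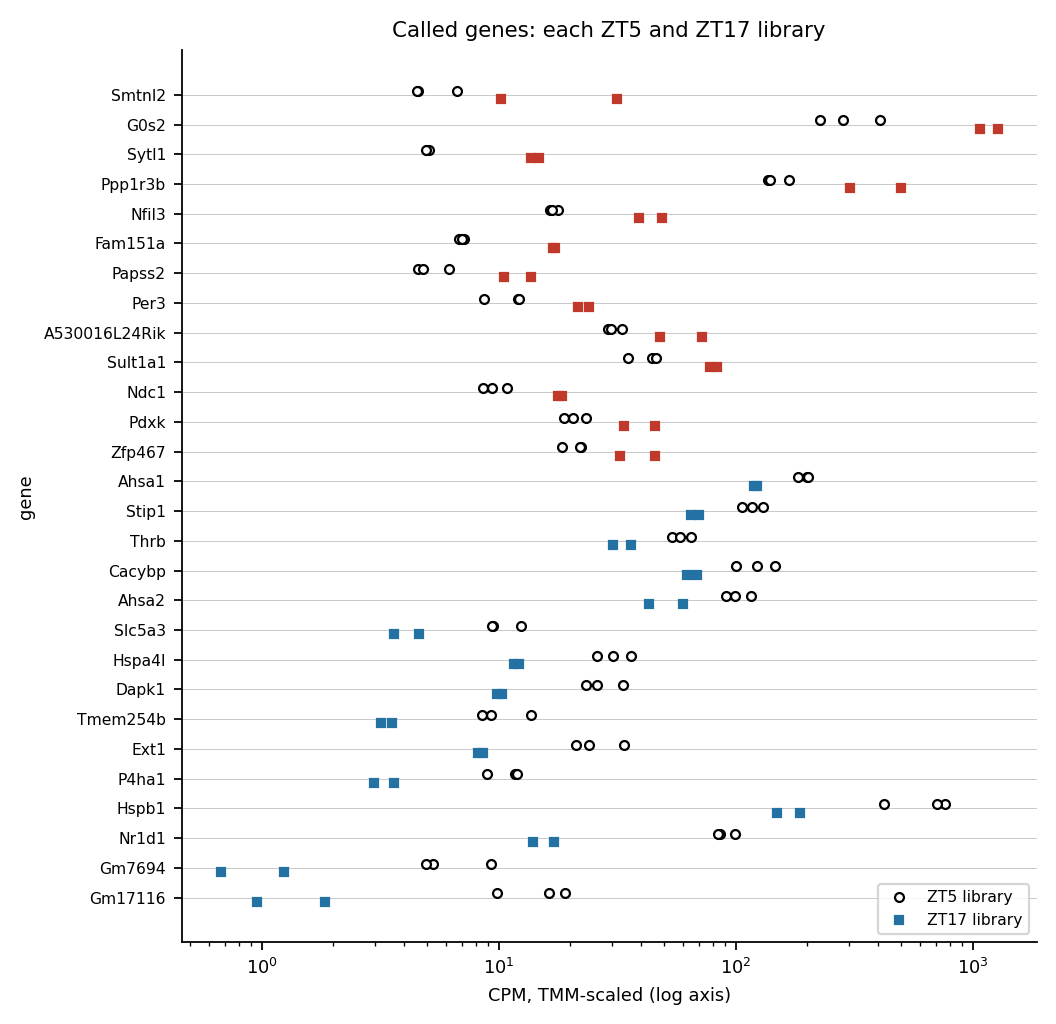
Level of each of the 28 genes that passed in each library, in CPM on a log axis; open circles are the 3 ZT5 libraries and squares the 2 ZT17 libraries (red for higher, blue for lower at ZT17). The groups do not overlap for any of the 28 genes, and Smtnl2 shows the widest gap between its ZT17 libraries.

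Among clock genes, Nr1d1 fell and Per3 and Nfil3 rose at ZT17. Nr1d1 (ENSMUSG00000020889), which encodes REV-ERBα, the repressor of Arntl, stood at 99.5, 86.0 and 84.2 CPM in the ZT5 libraries and at 17.1 and 13.9 CPM in the ZT17 libraries. Both ZT17 libraries lay far below all of ZT5, lower by a log2 difference of -2.54 ± 0.47 (SE; edgeR adjusted p = 0.0419). Over the day Nr1d1 was near 90.0 CPM at ZT1 and ZT5 and lowest at ZT17, at 15.5 CPM ± 2.23 (SD, n = 2). Thra overlaps its annotated span, so part of its count is uncertain because no source used here gives the strand setting of the counting.

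Per3 (ENSMUSG00000028957), a PERIOD protein gene, had 12.1, 12.2 and 8.66 CPM at ZT5 and 24.1 and 21.6 CPM at ZT17. Both ZT17 libraries were above all of ZT5, and the fitted difference was 1.05 ± 0.18 log2 (edgeR adjusted p = 0.035), and its highest mean was 25.6 CPM at ZT13. Nfil3 (ENSMUSG00000056749), the repressor acting at D-boxes, had 16.4, 17.9 and 16.9 CPM at ZT5 against 49.0 and 39.2 CPM at ZT17. It differed by 1.37 ± 0.25 (edgeR adjusted p = 0.0387), and stayed high at ZT21 (46.7 CPM ± 12.8, n = 3) and ZT1 (40.8 CPM ± 7.19, n = 3). Of the 10 clock repressor genes tested, 1 rose and 1 fell, and of the 4 output bZIP genes 1 rose; the medians of these lists were 0.07 and 0.42 log2, beside -0.04 over all genes tested.

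The clock activators Arntl and Clock did not pass, although their libraries did not overlap. Arntl had 6.94, 5.91 and 3.98 CPM at ZT5 and 2.48 and 1.34 CPM at ZT17, a log2 difference of -1.57 ± 0.58 (edgeR adjusted p = 0.457). Of the 14 alternatives, Arntl passed in 1, edgeR without a filter on low counts (edgeR adjusted p = 0.00495). Both times sat on the slopes of its daily course, which ran from 10.1 CPM at ZT1 to 0.286 CPM at ZT9. Clock differed by -0.50 ± 0.17 (edgeR adjusted p = 0.379). Dbp, which had 63.6, 55.6 and 57.7 CPM at ZT5 and 39.2 and 38.3 CPM at ZT17, gave -0.61 ± 0.30 (edgeR adjusted p = 0.651), while its extremes were at ZT13 (82.2 CPM) and ZT21 (9.26 CPM). For Per2, at 1.76 to 3.52 CPM and 3.16 to 5.27 CPM, the libraries overlapped (0.61 ± 0.39, edgeR adjusted p = 0.773).

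The promoters of 3 genes are printed because the genes passed here and had the highest authors' scores for BMAL1 binding near the start site among the 28 genes; binding was not measured in BAT. The sequences are RefSeq promoters of the GRCm38.p6 build, the 250 bases before the annotated start, 5' to 3' on the gene's strand, which is the minus strand for all 3. Capitals mark the D-box letters TTATGNAA (N is any base) in Per3 and the E-box CACGTG in Pdxk, each searched on both strands, with no overlap between motifs.
Nr1d1: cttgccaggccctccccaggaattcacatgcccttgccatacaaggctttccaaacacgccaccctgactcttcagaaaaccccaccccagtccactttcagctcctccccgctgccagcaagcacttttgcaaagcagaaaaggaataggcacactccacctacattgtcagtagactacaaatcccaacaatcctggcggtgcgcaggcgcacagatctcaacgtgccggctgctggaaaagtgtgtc
Per3: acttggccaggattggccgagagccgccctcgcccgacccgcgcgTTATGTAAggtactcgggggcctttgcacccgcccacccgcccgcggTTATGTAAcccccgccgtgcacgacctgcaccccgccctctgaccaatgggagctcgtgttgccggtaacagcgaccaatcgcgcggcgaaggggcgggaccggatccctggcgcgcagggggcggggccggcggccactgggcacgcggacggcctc
Pdxk: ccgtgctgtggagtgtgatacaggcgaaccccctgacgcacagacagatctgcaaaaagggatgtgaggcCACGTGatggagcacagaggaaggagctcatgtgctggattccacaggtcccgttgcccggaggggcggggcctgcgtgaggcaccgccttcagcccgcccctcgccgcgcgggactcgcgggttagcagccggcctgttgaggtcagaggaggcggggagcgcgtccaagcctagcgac
They lie at chr11:98775378-98775627 (Nr1d1), chr4:151044666-151044915 (Per3) and chr10:78464949-78465198 (Pdxk), each ending at the base before the start used in the promoter table, from which positions are counted. For Per3 that start lies inside the annotated span of the gene, which on this strand begins at 151044707.

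Per3 held the D-box letters at 2 places, from -205 to -198 and from -158 to -151 relative to the start. In the 300 bases from 250 before to 50 after the start, 2.4% of tested genes with a promoter in the table held a D-box, and Per3 was the only one of the 24 called genes matched that did. Pdxk, which encodes the kinase that makes active vitamin B6, held an E-box from -180 to -175, inside a BMAL1 peak of score 21.4. An E-box was found in 12% of tested promoters and, among called genes, in Pdxk and in Thrb. The Thrb match, at chr14:17981451-17981456, is at a promoter far inside the span of the gene (chr14:17659225-18040097) and in no BMAL1 peak. BMAL1 peaks of score 201.3, 129.9 and 85.1 lay at -8117, 1487 and -42 bp from the Nr1d1 start, and one of score 66.2 lay at -48 bp from that of Per3. A BMAL1 peak lay within 10 kb of 8 of the 13 genes that rose and 11 of the 15 that fell, beside 46.1% of all genes tested. Neither the RORE (AGGTCA or GGGTCA directly after AANT, in 0.366% of tested promoters) nor the glucocorticoid response element (AGAACA and TGTTCT 3 bases apart, 0.0111%) occurred in a promoter of a called gene. The same held for a heat shock element of 3 alternating GAA and TTC units 2 bases apart (0.644%), a motif chosen after the values were seen.

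Of the 15 genes that fell, 5 encode a heat shock protein or an HSP90 co-chaperone, a grouping made after their values were seen; in the heat shock list used throughout, 1 of 16 tested members passed, Hspb1. Hspb1 (ENSMUSG00000004951), the small heat shock protein HSP25, had 763, 708 and 422 CPM at ZT5 and 186 and 149.9 CPM at ZT17. All ZT5 libraries were above both ZT17 libraries even though replicate 3 was lower than its fellows, and the log2 difference was -1.91 ± 0.35 (edgeR adjusted p = 0.0387). Reads may be split with the near-identical pseudogene Hsp25-ps1, which had 6.204 to 21.04 CPM at ZT5 and 2.68 to 3.93 CPM at ZT17. By the authors' deposited TPM, which is corrected for length, Hspb1 was the most abundant of the 5, at a mean of 626 TPM at ZT5 and 149.7 TPM at ZT17.

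Hspa4l (ENSMUSG00000025757), a relative of HSP110, had 30.4, 36.0 and 26.0 CPM at ZT5 and 12.2 and 11.6 CPM at ZT17, a log2 difference of -1.37 ± 0.18 (edgeR adjusted p = 0.00702). Stip1 (ENSMUSG00000024966), the adaptor that links HSP70 to HSP90, had 130.1, 117 and 107 CPM against 69.9 and 65.1 CPM (-0.81 ± 0.14, edgeR adjusted p = 0.035). Ahsa2, related to the activator of the HSP90 ATPase, had 91.2 to 116 CPM against 43.1 and 59.9 CPM (-0.99 ± 0.17, edgeR adjusted p = 0.0374), though Usp34 and 1700030C12Rik overlap it. Ahsa1, that activator itself, had 182 to 202 CPM against 119 and 124 CPM (-0.69 ± 0.13, edgeR adjusted p = 0.0486); it fell outside the naming rule and was named after its values were seen. Cacybp, which encodes the calcyclin-binding protein, fell alongside them from 124, 147 and 100.3 CPM to 68.7 and 62.3 CPM (-0.92 ± 0.18, edgeR adjusted p = 0.0486).

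All 6 of these genes had their highest mean at ZT5, as did 12 of all 15 genes that fell. Stip1 averaged 118 CPM ± 11.8 at ZT5 and 43.9 to 75.0 CPM at the other 5 times, and Hspa4l averaged 30.8 CPM ± 5.03 and 11.7 to 18.8 CPM (SD, n = 3 at ZT5). The difference between ZT17 and ZT5 was therefore a high value at ZT5 more than a low one at ZT17. Because the genes were chosen by a difference that involves ZT5, this is a description.

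The other members of the heat shock list did not pass in edgeR. Over the whole list, Hspb1 included, 4 of the 16 had an unadjusted edgeR p under 0.05, DESeq2 called 2 and edgeR without a filter 3. Of its 16 tested members, 12 had a negative difference, 7 had every ZT17 library below every ZT5 library (13.1% of all genes) and 1, Bag3, had the reverse (11.4%); the median was -0.40 log2 beside -0.04 for all genes. Hsph1 had 130.3, 159.9 and 78.1 CPM at ZT5 and 48.5 and 38.1 CPM at ZT17 (-1.50 ± 0.39, edgeR adjusted p = 0.178). Hsp90aa1, the inducible HSP90, had 1871, 1841 and 2773 CPM against 854 and 819 CPM (-1.37 ± 0.45, edgeR adjusted p = 0.36), and averaged 2618 CPM ± 977 (n = 3) at ZT9. The cold-inducible gene Rbm3 overlapped between the times, at 71.3 to 114 CPM and 89.1 to 114 CPM (0.12 ± 0.24, edgeR adjusted p = 0.937). Of 20 genes of the unfolded protein response, the parallel programme of the endoplasmic reticulum, 0 passed in edgeR (4 at an unadjusted p under 0.05) and 0 in DESeq2, and 16 had a negative difference, with a median of -0.31 log2. Creld2 was at 7.01 to 8.55 CPM and 2.88 to 4.65 CPM, while the ER chaperone Hspa5 overlapped at 36.2 to 42.4 CPM and 31.3 to 37.8 CPM. Skeletal muscle markers were also lower at ZT17 (above), and their part in these values was not tested. Their median was -1.50 log2 here but 1.02 log2 in the flanking times described below. Endothelial markers likewise had medians of -1.07 and 0.79 log2. As a sum, the muscle markers were detected in every library compared, although the RNA came from captured adipocyte ribosomes. Singly, Myh2 was at 0 CPM in ZT5 replicate 2. Of 10 muscle markers, 0 passed in edgeR and 0 in DESeq2, but 8 passed as lower in edgeR without a filter on low counts. In such libraries of captured RNA, the number of cells of a type, their RNA per cell and the purity of the capture cannot be told apart.

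**Figure D3:**
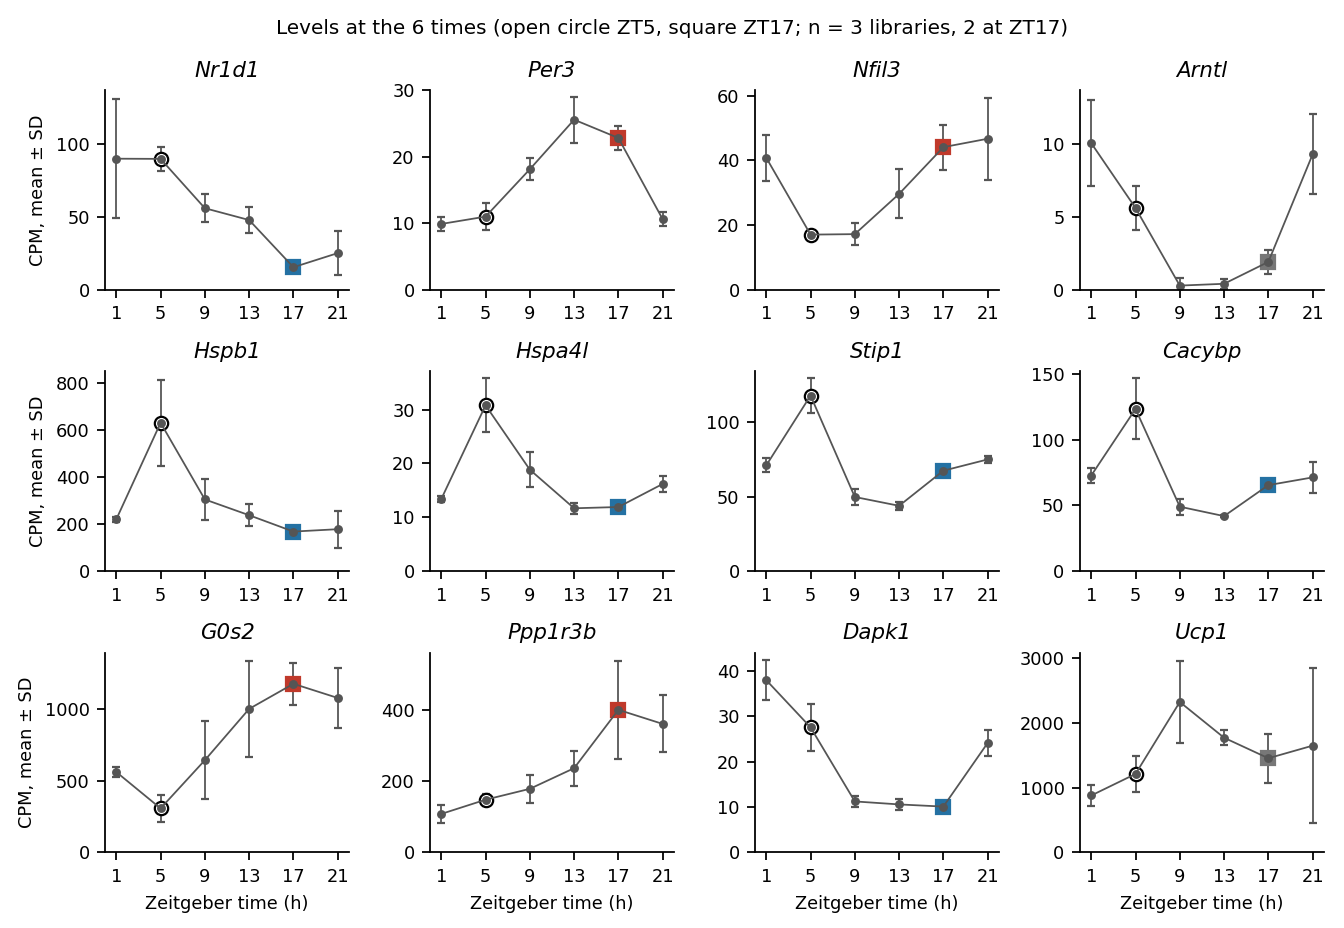
Mean level in CPM with SD (vertical axes, each from 0) at the 6 Zeitgeber times for 12 genes; n = 3 libraries, 2 at ZT17. Open circles mark ZT5, squares ZT17 (red rose, blue fell, grey did not pass). Hspb1, Hspa4l, Stip1 and Cacybp peak at ZT5, whereas Dapk1 declines from ZT1. Nr1d1 is about equally high at ZT1 and ZT5, and Arntl is high at ZT1 and ZT21.

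Lipid storage and glycogen each had a member that rose. G0s2 (ENSMUSG00000009633), the inhibitor of adipose triglyceride lipase, had 285, 226 and 408 CPM at ZT5 and 1069.9 and 1278 CPM at ZT17. Both ZT17 libraries were far above all of ZT5, and the log2 difference was 1.94 ± 0.34 (edgeR adjusted p = 0.0374). In the authors' deposited TPM its mean moved from 300.3 to 1094 TPM, the highest ZT17 level among the called genes with a TPM value. Its lowest mean of the day was at ZT5 (306 CPM ± 93.1, n = 3), with 559 CPM at ZT1 and 642 CPM at ZT9.

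G0s2 was the 1 called member of 13 tested lipolysis genes. Of these, 6 had every ZT17 library above every ZT5 library (11.4% of all genes) and 3 the reverse (13.1%), and the median was 0.07 log2. The lipid droplet protein Cidec had 848, 794 and 747 CPM at ZT5 against 1158 and 1410.4 CPM at ZT17, but missed the threshold (0.69 ± 0.17, edgeR adjusted p = 0.138). Abhd5, the co-activator of the lipase that G0s2 inhibits, had 39.1 to 66.0 CPM against 33.4 and 33.8 CPM (-0.73 ± 0.32, edgeR adjusted p = 0.582). The hormone-sensitive lipase gene Lipe was at 707 to 1162 CPM and 1212 to 1482 CPM (0.54 ± 0.21, edgeR adjusted p = 0.498).

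Ppp1r3b (ENSMUSG00000046794), which targets protein phosphatase 1 to glycogen and so favours its synthesis, had 137, 139 and 168 CPM at ZT5 and 303 and 498 CPM at ZT17. The ZT17 libraries differed from each other more than the ZT5 libraries did, yet both exceeded all of ZT5 (1.44 ± 0.27, edgeR adjusted p = 0.039). Its paralog Ppp1r3c gave a similar difference with wider spread, at 49.0, 38.7 and 84.4 CPM against 112 and 202 CPM (1.45 ± 0.34, edgeR adjusted p = 0.123). The 13 glycogen genes tested had a median of 0.10 log2, with 4 non-overlapping upward (11.4% of all genes) and 2 downward (13.1%). Gys2, a glycogen synthase, was at 7.68 to 8.73 CPM and 11.9 to 14.7 CPM (0.68 ± 0.34, edgeR adjusted p = 0.664).

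Lists of lipid uptake and synthesis had no member that passed. Angptl4, the inhibitor of lipoprotein lipase that rises in fasting, had 156, 157 and 121 CPM at ZT5 and 62.4 and 39.8 CPM at ZT17. Its ZT17 libraries lay below all of ZT5, but it missed the threshold (-1.50 ± 0.35, edgeR adjusted p = 0.112). It passed in DESeq2 (adjusted p = 0.00323) and in edgeR without a filter (adjusted p = 7.3e-08), 2 of the 14 alternatives, and in the flanking times described below (-1.14 ± 0.21, edgeR adjusted p = 0.0329). DESeq2 called 2 of the 14 members of its list. Lpl itself overlapped, at 774 to 878 CPM and 685 to 851 CPM (-0.11 ± 0.24, edgeR adjusted p = 0.945). In triglyceride synthesis, 0 of 12 genes passed in edgeR (5 at an unadjusted p under 0.05; 1 called by DESeq2), 10 had a positive difference and the median was 0.41 log2. Lpin1, the phosphatidate phosphatase of that pathway, had 337, 376 and 393 CPM at ZT5 and 687 and 714 CPM at ZT17 (0.93 ± 0.23, edgeR adjusted p = 0.158).

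Of 14 fatty acid synthesis genes, 0 passed in edgeR (2 at an unadjusted p under 0.05) and 0 in DESeq2. Thrsp, a lipogenic gene that responds to feeding and thyroid hormone, was at 2189, 1985 and 2055 CPM against 3063 and 4075 CPM (0.78 ± 0.23, edgeR adjusted p = 0.269). Fasn, the fatty acid synthase, was at 29.7 to 78.0 CPM at ZT5, and its ZT17 libraries, at 46.7 and 165 CPM, stood on both sides of that range (0.78 ± 0.84, edgeR adjusted p = 0.869). Among 18 insulin and feeding response genes, 0 passed in edgeR (6 at an unadjusted p under 0.05; 1 called by DESeq2); Igf1r was at 3.94 to 5.62 CPM against 1.82 and 2.17 CPM, and Txnip at 756 to 1117 CPM against 342 and 751 CPM. Leptin (Lep) was at 79.5, 76.3 and 94.2 CPM against 141 and 159 CPM (0.84 ± 0.30, edgeR adjusted p = 0.415).

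Thermogenic genes showed no detectable difference between mid-dark and mid-light. Of 18 tested, 0 passed in edgeR, 0 reached an unadjusted p under 0.05 and 0 were called by DESeq2, and their median was 0.09 log2. Ucp1 had 1095, 1017 and 1527 CPM at ZT5 and 1186 and 1726 CPM at ZT17, with overlapping libraries (0.26 ± 0.40, edgeR adjusted p = 0.91). The daily course of Ucp1 had its highest mean, 2327 CPM ± 636 (n = 3), at ZT9. Adrb3, the β3-adrenergic receptor, was at 40.2 to 54.8 CPM and 33.8 to 56.4 CPM (-0.14 ± 0.30, edgeR adjusted p = 0.943), although it averaged 19.3 CPM at ZT13. Ckb, the creatine kinase of the creatine cycle, was at 424 to 902 CPM and 767 to 934 CPM (0.38 ± 0.47, edgeR adjusted p = 0.883). Cidea, a lipid droplet protein typical of brown fat, spanned 4074 to 4923 CPM and 4911 to 5032 CPM.

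**Figure D4:**
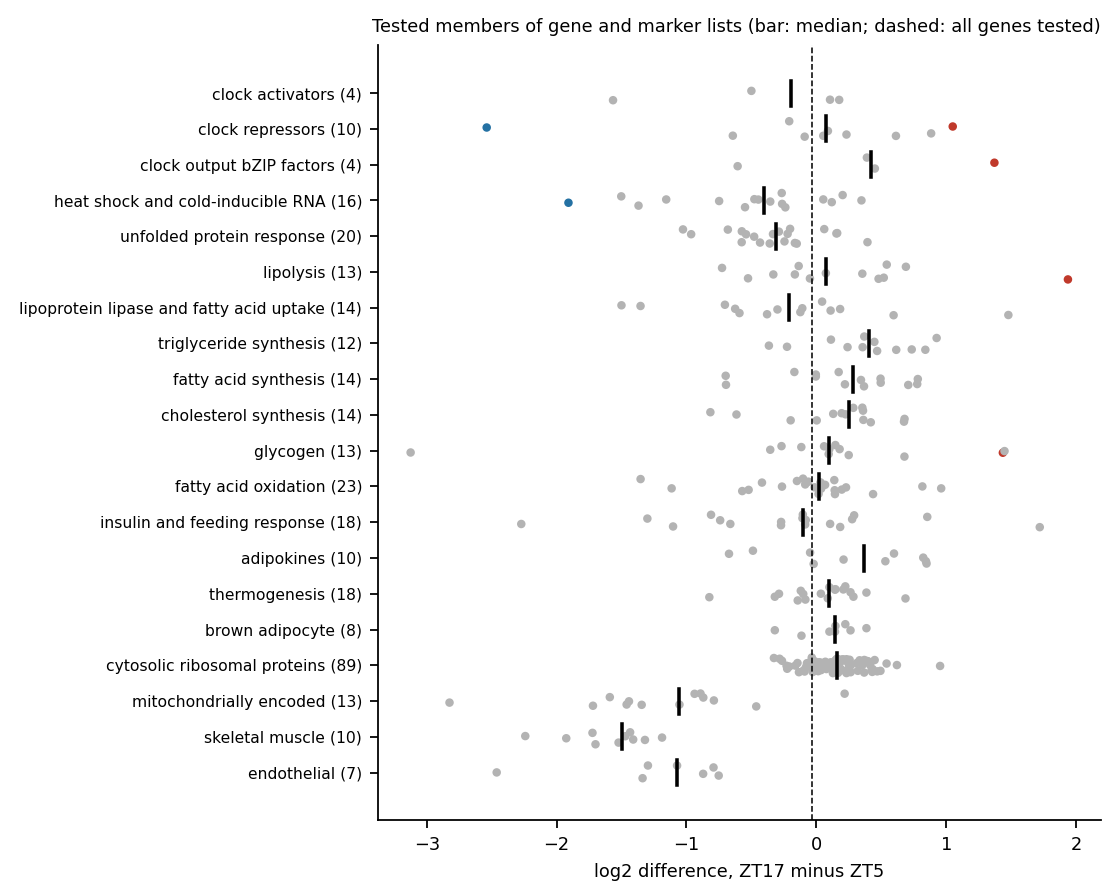
Log2 difference between ZT17 and ZT5 (horizontal axis) of each tested member of 20 gene and marker lists (number tested in brackets); red and blue points passed the test, grey points did not, the black bar is the list's median and the dashed line the median of all genes tested. Skeletal muscle, endothelial and mitochondrially encoded genes sit left of 0 without a call, and thermogenesis genes are centred near it.

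Beyond these groups, 8 named genes rose. Smtnl2, a smoothelin-like protein gene, had the largest fitted rise (2.00 ± 0.34, edgeR adjusted p = 0.035), but it rested on unequal libraries: 4.55, 4.50 and 6.67 CPM at ZT5 and 10.2 and 31.5 CPM at ZT17. Without ZT17 replicate 2 the difference was 0.99 log2. Sytl1, a synaptotagmin-like effector of Rab27, had close replicates, with 5.00, 5.07 and 4.92 CPM at ZT5 and 13.7 and 14.9 CPM at ZT17 (1.52 ± 0.23, edgeR adjusted p = 0.0195). Fam151a had 6.79, 7.18 and 7.02 CPM against 17.26 and 16.97 CPM (1.29 ± 0.21, edgeR adjusted p = 0.035); Acot11 and Mroh7 overlap its span, and Acot11 itself was at 24.6 to 26.2 CPM against 44.0 and 55.3 CPM.

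Both Papss2 and Sult1a1, genes of sulfate conjugation, rose. Papss2, which makes the sulfate donor, had 4.55, 6.19 and 4.80 CPM at ZT5 and 10.5 and 13.7 CPM at ZT17 (1.24 ± 0.23, edgeR adjusted p = 0.0387). Sult1a1, a phenol sulfotransferase that uses that donor, had 35.2, 44.3 and 46.1 CPM against 83.1 and 77.9 CPM (0.94 ± 0.18, edgeR adjusted p = 0.0449). They were set together after their values were seen, and Sult1a1 averaged 84.8 CPM ± 10.9 (n = 3) at ZT1. The nuclear pore gene Ndc1 had 8.59 to 10.8 CPM against 17.9 and 18.6 CPM (0.92 ± 0.17, edgeR adjusted p = 0.0387). Pdxk, whose promoter is printed above, had 18.9 to 23.4 CPM against 33.9 and 45.5 CPM, and the zinc finger gene Zfp467 had 18.4 to 22.2 CPM against 32.7 and 45.6 CPM; both had an edgeR adjusted p of 0.0486. The uncharacterised A530016L24Rik, outside the naming rule, had 29.0 to 33.2 CPM against 48.1 and 72.4 CPM.

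Outside the clock and the chaperones, 6 named genes fell. Dapk1 (ENSMUSG00000021559), a calcium-dependent kinase associated with cell death and autophagy, had 23.4, 26.0 and 33.4 CPM at ZT5 and 10.3 and 9.87 CPM at ZT17 (-1.45 ± 0.19, edgeR adjusted p = 0.00702). It was highest at ZT1 (38.0 CPM ± 4.40) and flat from ZT9 to ZT17 (10.1 to 11.2 CPM). P4ha1, a subunit of the collagen prolyl hydroxylase, had 8.95, 11.7 and 11.9 CPM against 3.62 and 2.97 CPM (-1.71 ± 0.25, edgeR adjusted p = 0.0143). Ext1, a glycosyltransferase that polymerises heparan sulfate, had 24.2, 21.3 and 33.9 CPM against 8.16 and 8.63 CPM (-1.65 ± 0.28, edgeR adjusted p = 0.035).

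Thrb, the thyroid hormone receptor β gene, had 54.1, 65.0 and 58.2 CPM at ZT5 and 36.1 and 30.3 CPM at ZT17 (-0.83 ± 0.16, edgeR adjusted p = 0.0492). Its means at the other 4 times, 26.8 to 34.4 CPM, were near that of ZT17. Slc5a3, the sodium/myo-inositol cotransporter, had 9.37 to 12.4 CPM against 3.617 and 4.601 CPM (-1.33 ± 0.25, edgeR adjusted p = 0.0449), with Mrps6 overlapping its span. Tmem254b had 8.55 to 13.7 CPM against 3.20 and 3.55 CPM, and is uncertain because near-identical copies exist. The predicted genes Gm17116 and Gm7694, outside the naming rule, had 9.83 to 19.0 CPM against 0.959 and 1.86 CPM, and 4.93 to 9.25 CPM against 0.671 and 1.24 CPM.

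Whether these differences extended to other hours of night and day was tested in 12 libraries that the comparison had not used, as the mean of ZT13 and ZT21 minus the mean of ZT1 and ZT9 (the estimate of spread is shared). The sign was the same for 27 of the 28 genes, beside 59% of all genes tested, and Smtnl2 was the exception (-0.02 ± 0.22). In this contrast 29 genes passed (0.234%), 26 higher at night (0.21%) and 3 lower (0.0242%), of which Fam151a, Ppp1r3b and P4ha1 were among the 28. The count was 11 to 15 without ZT1 replicate 1 or 3, ZT9 replicate 1 or 3 or ZT13 replicate 3, and 65 without ZT21 replicate 1. Fam151a differed by 1.10 ± 0.14 (edgeR adjusted p = 0.00336), Ppp1r3b by 1.07 ± 0.17 (edgeR adjusted p = 0.0118) and P4ha1 by -0.83 ± 0.15 (edgeR adjusted p = 0.0273). Nr1d1 gave -1.03 ± 0.27 (edgeR adjusted p = 0.159) and G0s2 0.79 ± 0.22 (edgeR adjusted p = 0.191). For the 12 genes whose highest mean was at ZT5, the flanking difference ranged from -0.94 ± 0.27 for Gm7694 to -0.05 ± 0.08 for Stip1, with -0.33 ± 0.21 for Hspb1 and -0.21 ± 0.11 for Hspa4l; P4ha1 was the only one of them that passed. In the authors' deposited table of JTK_CYCLE rhythm tests over all BAT libraries, 12 of the 27 called genes listed there had a q-value under 0.05, beside 4.33% of all genes listed; that table includes the libraries compared here.

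**Figure D5:**
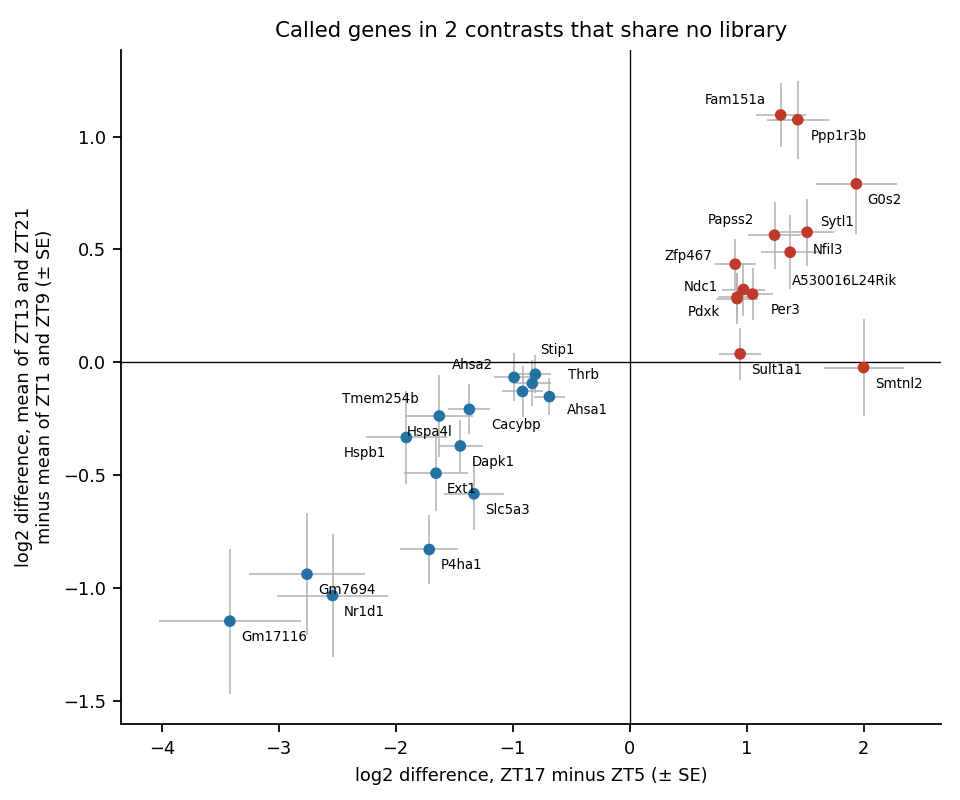
Log2 difference with SE of the 28 called genes between ZT17 and ZT5 (horizontal axis) and between the means of ZT13 and ZT21 and of ZT1 and ZT9 (vertical axis), 2 contrasts with no library in common. All but Smtnl2 lie in the quadrants of equal sign; Fam151a and Ppp1r3b stand highest, and Stip1 and Ahsa2 lie close to the horizontal line.

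The same times in inguinal WAT gave many more calls, 1281 of 12703 genes (10.1%), 891 higher (7.01%) and 390 lower (3.07%) at ZT17; with RLE in place of TMM scaling the split was 637 and 520 and the median over all genes moved from -0.07 to -0.23 log2. The count was 37 to 185 without WAT ZT5 replicate 1 or 2 or WAT ZT17 replicate 1 or 3, 851 without WAT ZT5 replicate 3 and 1937 without WAT ZT17 replicate 2. Ribosomal RNA loci took 30.5, 25.1 and 66.0% of counts in the WAT ZT5 libraries and 19.1, 53.0 and 20.0% at ZT17. In the BAT libraries of these times they took 0.912 to 2.44%. Library composition thus differed along with depot, and its part in the number of calls was not tested. Of the 26 called BAT genes tested there, 22 had the same sign (60.5% among all genes tested in both depots) and 6 passed in the same direction: G0s2, Ndc1, Ppp1r3b, Sult1a1, Zfp467 and A530016L24Rik. G0s2 rose by 3.52 ± 0.50 in WAT (edgeR adjusted p = 0.00109) and Ppp1r3b by 2.18 ± 0.44 (edgeR adjusted p = 0.00732). Nr1d1 gave -1.03 ± 0.41 in WAT (edgeR adjusted p = 0.105), Hspb1 -0.65 ± 0.40 (edgeR adjusted p = 0.297) and Nfil3 -0.08 ± 0.85 (edgeR adjusted p = 0.965).

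The difference between depots was tested directly, and 1 of the 28 genes passed, Dapk1, beside 11 of 14969 genes (0.0735%). The BAT change was above that of WAT for 4 of these (0.0267%) and below it for 7 (0.0468%). With RLE the split was 4 and 3, and the median moved from -0.09 to 0.15 log2. In simulated data this test found 0% of 2-fold and 38% of 4-fold changes, beside 46% and 91% for ZT17 minus ZT5 in BAT. A gene that missed the threshold is thus not shown to change alike in both depots. Dapk1 fell in BAT (above, on the BAT scale) but stood at 32.4, 23.8 and 19.7 CPM at ZT5 and 57.6, 44.3 and 54.3 CPM at ZT17 in WAT. Within WAT alone Dapk1 did not pass (0.95 ± 0.37, edgeR adjusted p = 0.0919). The difference of the changes was -2.45 ± 0.45 (edgeR adjusted p = 0.0188), and it did not pass without BAT ZT5 replicate 3, either BAT ZT17 library or WAT ZT17 replicate 3. Without WAT ZT5 replicate 3 and WAT ZT17 replicate 2, which are rich in ribosomal RNA, 684 genes passed (4.58%), among them Dapk1, Nr1d1, Ahsa2 and Gm17116 of the 28. The count was 466 (3.12%) without WAT ZT17 replicate 2 alone, and 0 without BAT ZT17 replicate 2 (1752 at an unadjusted p under 0.05 in edgeR).

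Chromatin of sorted BAT nuclei was compared at the same times by ATAC-seq (3 libraries each, 5008402 to 12811242 tags in peaks). Of 42572 peaks, 4257 passed (10%), 2667 more accessible at ZT17 (6.26%) and 1590 less (3.73%). Without ZT17 replicate 2, ZT5 replicate 1, ZT5 replicate 2 or ZT17 replicate 3 the count was 1176, 1550, 1699 or 2795. Of the 12 genes that rose and had a peak within 10 kb of the start, 5 had a peak that rose, beside 3.08% of the 9341 tested genes with such a peak. Of the 11 that fell and had one, 3 had a peak that fell, beside 10.5%. The 5 genes were Smtnl2, Nfil3, Ppp1r3b, Sytl1 and Zfp467, and the 3 were Nr1d1, Hspa4l and Cacybp.

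The peak upstream of Nr1d1 (chr11:98783480-98783630, mm10, at -8178 bp from the start, intergenic) had 56.3, 53.4 and 48.7 CPM at ZT5 and 29.1, 26.5 and 34.9 CPM at ZT17. It fell by 0.78 on the log2 scale (SE 0.12, edgeR adjusted p = 4.81e-04), and overlaps the highest-scoring BMAL1 peak of the gene. Near Smtnl2, 6 peaks rose; the one with the smallest p (chr11:72418298-72418448, intergenic, at -6660 bp from the start) had 16.5, 16.3 and 20.98 CPM against 30.4, 36.0 and 37.3 CPM (0.94 ± 0.15, edgeR adjusted p = 4.43e-04). Smtnl2 accessibility thus rose in all 3 ZT17 nuclear libraries, whereas its RNA differed between the 2 ZT17 RNA libraries. A peak at -4517 bp from the Nfil3 start (chr13:52985481-52985631, intergenic) had 15.3 to 20.02 CPM against 18.5 to 33.1 CPM (0.56 ± 0.15, edgeR adjusted p = 0.0231). In an intron of Ppp1r3b, 2701 bp after the start, accessibility went from 19.4 to 22.8 CPM up to 27.1 to 29.9 CPM (0.42 ± 0.12, edgeR adjusted p = 0.0234).

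At the promoter of Hspa4l (-229 bp from the start) the peak had 77.4, 61.6 and 70.2 CPM at ZT5 and 60.1, 53.8 and 57.6 CPM at ZT17, a fall of 0.29 on the log2 scale (edgeR adjusted p = 0.0181). The corresponding values for Cacybp were -0.21 ± 0.06 (edgeR adjusted p = 0.0375). Promoter peaks also fell at Angptl4 (-0.37 ± 0.09, edgeR adjusted p = 0.0148) and Lpl (-0.24 ± 0.07, edgeR adjusted p = 0.0357), whose RNA did not pass. G0s2, Per3, Hspb1 and Dapk1 each had peaks within 10 kb, and no peak of theirs passed.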

How the data were processed

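RNA was measured in 35 libraries (17 BAT, 18 WAT) and chromatin accessibility in 18 BAT libraries used here. The authors deposited estimated counts per gene, a TPM table with JTK_CYCLE q-values for BAT, raw ATAC-seq tag counts in 150 bp regions, and HOMER scores of BMAL1 peaks; without roles, the genome build mm10 and the tools RSEM 1.3.0, STAR 2.7.5, limma, HOMER and DESeq2 appear in the submitters' processing notes. Estimated counts were rounded to whole numbers. Of 55487 genes, 55394 had a symbol, and filterByExpr kept 12394 in BAT. The main test was edgeR's quasi-likelihood test (edgeR 4.0.16, R 4.3.3, robust, TMM scaling, Benjamini-Hochberg adjustment over all genes, threshold 0.05) with time as a factor of 6 levels over 17 BAT libraries. SE was taken as the log2 difference over the root of F. The same test was fitted to WAT, to both depots with an interaction, and to ATAC tag counts. CPM values of the depot comparison are scaled over both depots and differ slightly from those of BAT alone.

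Named were the 12 largest called rises and falls (at least 5 CPM, libraries not overlapping, predicted genes and pseudogenes left out), called list members, and a fixed set of clock, thermogenic and lipid genes; genes named outside this rule are marked. The members and lists were chosen with earlier results of these data known. Alternatives were RLE scaling, other filters, DESeq2 1.42.0, limma 3.58.1 on log2(TPM + 1) and log2(TPM + 0.1), a replicate block, the 5 libraries alone, and leaving out each library. Empty TPM cells (4779) were read as 0. The per-sample columns not matched to a sample numbered 1 and were not used. The 5 libraries compared held 6242123 to 12609367 counts, and replicates of a time differed by more than counting error (chi-square of 8.24 or more per degree of freedom). The edgeR scripts were tested on simulated data.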

Additional observations from a re-analysis of the deposited data

Results flagged for a closer look

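In an edgeR test of the interaction between depot and time, the ZT17 minus ZT5 change differed between BAT and WAT for 11 of 14969 genes. The values below are the BAT change minus the WAT change in log2. Acta2, smooth muscle actin, differed by 5.14 ± 0.78 (SE; edgeR adjusted p = 0.00142): it was at 0.217 to 0.416 CPM at ZT5 and 1.56 and 3.03 CPM at ZT17 in BAT, and at 15.2 to 25.0 CPM and 2.45 to 5.04 CPM in WAT. Srp54c differed by 5.19 ± 0.95 (edgeR adjusted p = 0.0188), with 40.4 to 66.1 CPM in all 5 BAT libraries, 19.7 to 31.3 CPM at ZT5 in WAT and 0 to 0.964 CPM at ZT17 in WAT. Ift27, an intraflagellar transport gene, differed by -3.09 ± 0.58 (edgeR adjusted p = 0.0188): its WAT libraries went from 1.18 to 3.86 CPM up to 25.2 to 28.8 CPM, while BAT stayed between 15.0 and 21.8 CPM.

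Dapk1, described above, differed by -2.45. Synpo2 differed by 2.99 and Gm10443 by 2.59. The other genes with a BAT change below that of WAT were Sycp3 (-3.37), Gm7600 (-4.51), Tbl2 (-2.92), Nat8l (-2.47) and Rbm12b2 (-5.53). Of the 11, Dapk1 was the only gene among the 28 called between ZT17 and ZT5 in BAT. All 11 kept their direction in the 15 alternatives, but none passed in edgeR without BAT ZT17 replicate 2 (1752 genes at an unadjusted p under 0.05).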

How the results depend on the processing

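Against 28 calls between ZT17 and ZT5, 260 genes passed without a filter on low counts, 124 in DESeq2, 3 with the 5 libraries alone, and 0 by limma on log2(TPM + 1) and on log2(TPM + 0.1) (716 and 738 at an unadjusted p under 0.05), and 0 to 17 when a library was left out. No called gene passed in all 14 alternatives, and all 28 kept their direction. In the flanking contrast 315 passed without a filter and 11 to 65 with a library left out. In WAT 37 to 1937 passed with a library left out. For the depot difference 7 passed with RLE, 383 without a filter, 684 without the 2 WAT libraries rich in ribosomal RNA, and 0 to 466 with a library left out. ATAC peaks numbered 1176 to 5072 with a library left out. The cause was not tested.

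The main fit did not pair libraries by replicate number. Of 40 same-numbered pairs of BAT RNA libraries, 14 correlated above 0.1 in their deviations (median 0.0557, range -0.46 to 0.348). Pairs with different numbers were not examined, so these values cannot tell whether the numbers mark a pairing or a batch. With a replicate block 8 genes passed between ZT17 and ZT5, 26 in the flanking contrast, 1557 in WAT, 7 for the depot difference and 4446 ATAC peaks. With 2 libraries at ZT17, a gene that missed the threshold is not shown to be unchanged.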

Other observations

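A few genes with large differences did not pass and were chosen after their values were seen. Depp1, an insulin- and FOXO-responsive gene, had 66.0, 49.5 and 98.6 CPM at ZT5 and 3.93 and 4.70 CPM at ZT17 in BAT (log2 difference -4.04 ± 1.13, edgeR adjusted p = 0.24), with 454 CPM ± 121 (SD, n = 3) at ZT1. A pair of Ensembl genes share the symbol Zc3h11a: one had 35.0 to 36.9 CPM at ZT5 and 0 in both ZT17 libraries, and the other 0.149 to 10.1 CPM and 41.1 to 42.9 CPM. Estimated counts split between overlapping copies are uncertain, and neither passed (edgeR adjusted p = 0.254 and 0.667).

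Of 89 cytosolic ribosomal protein genes, 0 passed in edgeR (2 at an unadjusted p under 0.05) and 0 in DESeq2, and 66 had a positive difference with a median of 0.16 log2. Of 13 mitochondrially encoded genes, 0 passed in edgeR (0 at an unadjusted p under 0.05) and 0 in DESeq2, but 10 passed as lower in edgeR without a filter on low counts. Their median was -1.05 log2, or -0.65 log2 without ZT5 replicate 3, and 1.81 log2 in the flanking contrast; mt-Co1 was at 754, 518 and 2147 CPM at ZT5 and 361 and 331 CPM at ZT17. The 88 nuclear genes of the respiratory chain had a median of 0.08 log2, with 0 passing in edgeR (1 at an unadjusted p under 0.05) and 0 in DESeq2.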
